A study of Mus musculus with 32 samples.

Results

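Sox5, Sox6 and Sox13 are the SOXD genes, 3 of the 26331 named genes counted, and were taken from the deposited count files by their symbols. RNA was counted in 32 libraries from the mouse embryonic forebrain, dorsal telencephalon at stage E12.5 and cortex 3 days later at E15.5, in 8 groups that differ in Kat6b genotype, age and genetic background. Kat6b encodes a histone acetyltransferase of the MYST family. Embryos labelled as Kat6b knockouts and their wild-type (WT) controls were C57BL/6, with 3 libraries per genotype at the earlier age and 5 at the later. On mixed FVBxBALB/c, embryos with the transgene Tg(Kat6b) and their WT controls had 4 libraries each at both ages. Per the study's design text, the transgenic mice did not survive on an inbred background, which is why knockout and transgenic embryos differ in background. The promoter of the transgene and the form of the knockout allele are unstated in the labels. Each background was sequenced as 1 batch, so a difference between backgrounds cannot be told apart from one between sequencing batches.

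SOXD proteins bind DNA through an HMG box and pair with each other through a coiled coil. They carry no activation or repression domain of their own and act with partner proteins, in cartilage most famously with SOX9. In the mouse cortex SOX5 marks subplate and deep-layer corticofugal neurons and times their production, while SOX6 is found in cortical progenitors and in interneurons born in the medial ganglionic eminence (MGE). SOX13 is best known from gamma-delta T cells and from its binding to TCF factors of the Wnt pathway.

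All 3 genes lie on the minus strand of GRCm38 (mm10) in RefSeq's annotation. Sox5 (Entrez 20678) spans 143828425 to 144782287 on chromosome 6, Sox6 (Entrez 20679) spans 115470872 to 116040776 on chromosome 7, and Sox13 (Entrez 20668) spans 133382300 to 133424459 on chromosome 1. The counted lengths are 7334, 8486 and 3531 bases in that order. RefSeq places further noncoding genes within Sox5 and Sox6. Of these, Sox5os3 alone had a row in the files, with 1 count over all 32 libraries. The labels do not say whether reads were counted by strand, so reads from antisense transcripts cannot be told apart from those of Sox5 and Sox6.

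The stretches before the start sites are shown because the windows differ in CG content, between the genes and among the start sites of Sox6. Whether this has a part in their levels was not tested. RefSeq's promoter table (GRCm38.p6) held 8 start sites for the 3 genes: 1 for Sox5, 6 for Sox6 and 1 for Sox13. Each sequence below reads 5′ to 3′ on the minus strand and belongs to the 250 bases before a start site, without bases that overlap an annotated exon. Capitals mark the dinucleotide CG. The Sox5 sequence is chr6:143947107-143947356, before a start site that lies inside the gene, 835181 bases from its 5′ end. For Sox6 the sequence before the start site nearest the 5′ end of the gene is given, chr7:116038797-116038994. The Sox13 sequence is chr1:133424378-133424462.
Sox5: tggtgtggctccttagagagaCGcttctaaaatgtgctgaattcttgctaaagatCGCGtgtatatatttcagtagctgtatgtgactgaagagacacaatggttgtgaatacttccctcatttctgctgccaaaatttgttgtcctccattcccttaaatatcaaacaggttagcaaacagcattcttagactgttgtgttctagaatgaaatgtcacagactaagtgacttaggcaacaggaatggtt
Sox6: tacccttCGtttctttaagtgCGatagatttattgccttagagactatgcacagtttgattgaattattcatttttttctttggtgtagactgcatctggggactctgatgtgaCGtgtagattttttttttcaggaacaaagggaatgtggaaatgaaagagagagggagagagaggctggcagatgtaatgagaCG
Sox13: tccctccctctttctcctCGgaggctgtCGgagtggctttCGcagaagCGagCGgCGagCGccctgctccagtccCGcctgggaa
Over the whole 250 bases, the Sox13 window held 31 CG at a GC content of 72.4%, this Sox6 window 9 CG at 45.2% and the Sox5 window 3 CG at 39.6%. The other 5 Sox6 windows held 10, 2, 2, 2 and 1 CG in order from the 5′ end, so the 9 CG do not stand for that gene as a whole. The median over 32851 windows of 27025 genes was 6 CG, and 95.4% of windows held no more than the 31 of Sox13. The letters AACAAT or, on the other strand, ATTGTT, the core that SOX factors bind, were in 1 of the 8 SOXD windows and in 9.4% of all windows. That window belongs to the start site of Sox6 numbered 5 from the 5′ end. Such a match is a description of the letters and not a binding site.

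Total counts per library ranged from 10424813 to 49699656. Per library, Sox5 had up to 12382 counts, Sox6 up to 7620 and Sox13 up to 1932. Of the 11 markers of dorsal telencephalon and cortex, including Emx1 and Tbr1, 0 were at 0 in any group. Their summed level was 2432 to 5460 CPM, counts scaled to a common library total, at E15.5 and 1395 to 2210 at E12.5. The 11 markers of ventral telencephalon, where MGE interneurons arise, were also all detected, at 401 to 1106 CPM summed at E15.5 and 246 to 971 at E12.5. Markers of more caudal brain summed to 44.8 to 318 CPM at E15.5 and 143 to 852 at E12.5, with En1, Hoxa2 or Hoxb2 at 0 in some groups. Meningeal and mesenchymal markers, 12 of 12 detected, summed to 46.2 to 218 CPM at E15.5 and 264 to 2233 at E12.5. Labelled knockout replicates 3 and 4 at E15.5 stood apart, with 218 and 214 CPM of these markers where the other 8 C57BL/6 libraries of that age had 46.2 to 139. In knockout replicate 3, ribosomal RNA took 19.1% of the counts, against at most 0.728% in every other library. In C57BL/6, replicate 5 of either genotype at E15.5 has a file whose column is named for an E12.5 sample, and the tissue label of 1 of them is dorsal telencephalon. On the first principal component these 2 libraries scored 57.5 (knockout) and 57.7 (WT), within the range of the E15.5 samples.

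Kat6b itself averaged 547 ± 54.7 CPM in Tg(Kat6b) and 178 ± 20.2 in WT at E12.5, and 659 ± 77.3 and 183 ± 31.7 at E15.5 (SD, n = 4 each). That is 3.09-fold (adjusted p = 1.03e-05 by edgeR) and 3.62-fold (adjusted p = 1.64e-06) the WT level. In the labelled knockout the level was 154 ± 34.8 CPM against 170.4 ± 20.7 in WT at E12.5 (n = 3 each), and 174.5 ± 15.1 against 170.8 ± 17.8 at E15.5 (n = 5 each). Counts summed over the whole gene do not check the labelled knockout genotype.

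The age comparison asks how the 3 genes behave while the cortex passes from early to mid neurogenesis. They parted: Sox5 rose more than 3-fold in all 4 genotypes and backgrounds, Sox13 fell to 0.429 to 0.582 of its E12.5 level, and Sox6 fell in 3 of the 4, by 0.30 to 0.38 on the log2 scale. Calls were made with edgeR's quasi-likelihood test where the p adjusted over all tested genes was below 0.05. Age is also a difference between dissections, dorsal telencephalon at E12.5 and cortex at E15.5. In tissue samples such as these, more cells of a type and more RNA per cell cannot be told apart. A call by itself was common at this step: with age, 56.4% of genes were called in the labelled knockout, 56.8% in C57BL/6 WT, 46.3% in Tg(Kat6b) and 50.1% in FVBxBALB/c WT. Called higher, as Sox5 was, were 29.4%, 28.6%, 23.8% and 25.1% in that order, and called lower, as Sox13 was, were 27%, 28.2%, 22.5% and 25.1%. The share of all genes whose libraries separate by age without overlap was not counted.

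Sox5, the deep-layer factor, had 286, 241, 204, 194 and 289 CPM in the 5 labelled knockout cortices at E15.5, against 72.2, 63.8 and 67.4 in the 3 knockout samples at E12.5. C57BL/6 WT had 312, 259, 234, 311 and 267 CPM at E15.5, against 78.0, 92.0 and 80.2 at E12.5. Every E15.5 library of either genotype was above every E12.5 library. Tg(Kat6b) samples had 296, 288, 319.7 and 417 CPM at E15.5, against 130.1, 96.3, 102 and 84.1 at E12.5. In FVBxBALB/c WT, values were 401, 291, 256 and 290.1 CPM at E15.5, against 91.0, 109.9, 113 and 79.7 at E12.5. Again the ages did not overlap, and over all 32 libraries the lowest E15.5 value, 194, lay above the highest E12.5 value, 130.1.

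The log2 fold change of Sox5 with age was 1.88 (SE 0.138, adjusted p = 1.585e-08 by edgeR) in the labelled knockout and 1.75 (SE 0.136, adjusted p = 4.06e-08) in C57BL/6 WT. It was 1.68 (SE 0.173, adjusted p = 1.24e-06) in Tg(Kat6b) and 1.65 (SE 0.173, adjusted p = 1.10e-06) in FVBxBALB/c WT. As ratios these are 3.68 (95% interval 3.00 to 4.49), 3.36 (2.75 to 4.10), 3.21 (2.49 to 4.14) and 3.15 (2.44 to 4.06). Sox5 stood at the 95.7th to the 96.7th percentile of all log2 fold changes in these 4 comparisons. The meningeal and mesenchymal markers moved the other way, with 8 to 11 of 12 called lower at E15.5, and so did the erythroid markers, with 8, 8, 5 and 5 of 8 called lower. The part of either list in the Sox5 rise was not tested. Without knockout replicates 3 and 4 of E15.5, the age change of Sox5 in the labelled knockout was 2.03, and without replicates 5 of E15.5 it was 1.81 there and 1.76 in C57BL/6 WT.

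Sox13, the smallest of the SOXD transcripts in CPM, had 17.9, 16.4, 19.45, 22.0 and 17.9 CPM in labelled knockout cortex at E15.5, against 42.6, 37.2 and 40.5 at E12.5. C57BL/6 WT had 23.0, 22.7, 22.5, 21.9 and 20.6 CPM at E15.5, against 42.7, 38.4 and 47.4 at E12.5. Tg(Kat6b) samples had 19.3, 19.6, 17.65 and 16.6 CPM at E15.5, against 30.3, 27.9, 37.9 and 30.0 at E12.5. The ages did not overlap in these 3 genotypes. FVBxBALB/c WT had 17.0, 16.5, 17.4 and 13.8 CPM at E15.5, against 35.5, 36.45, 40.7 and 38.3 at E12.5, again without overlap.

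Sox13 fell by 1.06 on the log2 scale in the labelled knockout (SE 0.0936, adjusted p = 9.71e-08 by edgeR) and by 0.93 in C57BL/6 WT (SE 0.0935, adjusted p = 4.72e-07). It fell by 0.78 in Tg(Kat6b) (SE 0.107, adjusted p = 1.89e-05) and by 1.22 in FVBxBALB/c WT (SE 0.108, adjusted p = 1.56e-07). The E15.5 level was thus 0.479, 0.524, 0.582 and 0.429 of the E12.5 level. The meningeal and mesenchymal markers fell in the same comparisons, with medians of -2.93, -2.86, -3.31 and -3.26 on the log2 scale, and 8 of 8 erythroid markers lay below 0 in each, with medians of -2.20, -2.25, -1.84 and -1.42. The erythroid markers summed to 113 to 241 CPM at E15.5 and 1313 to 9383 at E12.5. The part of either list in the Sox13 and Sox6 values was not tested. The knockout value was -1.18 without replicates 3 and 4 of E15.5 and -1.04 without replicate 5, and the C57BL/6 WT value was -0.90 without replicate 5.

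Sox6, the progenitor and interneuron factor, had 97.3, 101, 90.4, 88.7 and 103 CPM in labelled knockout cortex at E15.5, against 128, 108 and 99.5 at E12.5. Here the ages overlapped. C57BL/6 WT had 114, 107, 79.95, 107 and 109 CPM at E15.5, against 158, 130.2 and 121 at E12.5, with no overlap. Tg(Kat6b) samples had 119, 143, 144 and 133 CPM at E15.5, against 175, 172, 169.9 and 151 at E12.5, with no overlap either. In FVBxBALB/c WT the values were 130.2, 133, 97.0 and 118 CPM at E15.5, against 119, 161.5, 175 and 135 at E12.5, and E12.5 replicate 1, at 119, lay among the E15.5 libraries.

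The log2 fold change of Sox6 with age was -0.18 (SE 0.114, adjusted p = 0.188 by edgeR) in the labelled knockout, which did not pass and was -0.074 without knockout replicate 1 of E12.5. It was -0.38 (SE 0.113, adjusted p = 0.00853) in C57BL/6 WT, -0.30 (SE 0.121, adjusted p = 0.0490) in Tg(Kat6b) and -0.30 (SE 0.121, adjusted p = 0.0465) in FVBxBALB/c WT. These 3 calls each rest on single libraries. The C57BL/6 WT call was lost without WT replicate 1 of E12.5 (-0.26, adjusted p = 0.0722). In Tg(Kat6b) it was lost without any 1 of the E15.5 replicates 1 to 4 or the E12.5 replicates 1, 2 and 3, at -0.34 to -0.25. In FVBxBALB/c WT it was lost without E12.5 replicate 2 or 3 or E15.5 replicate 3 or 4, at -0.29 to -0.21. The C57BL/6 WT value without replicate 5 of E15.5 was -0.40 and stayed called.

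**Figure D1:**
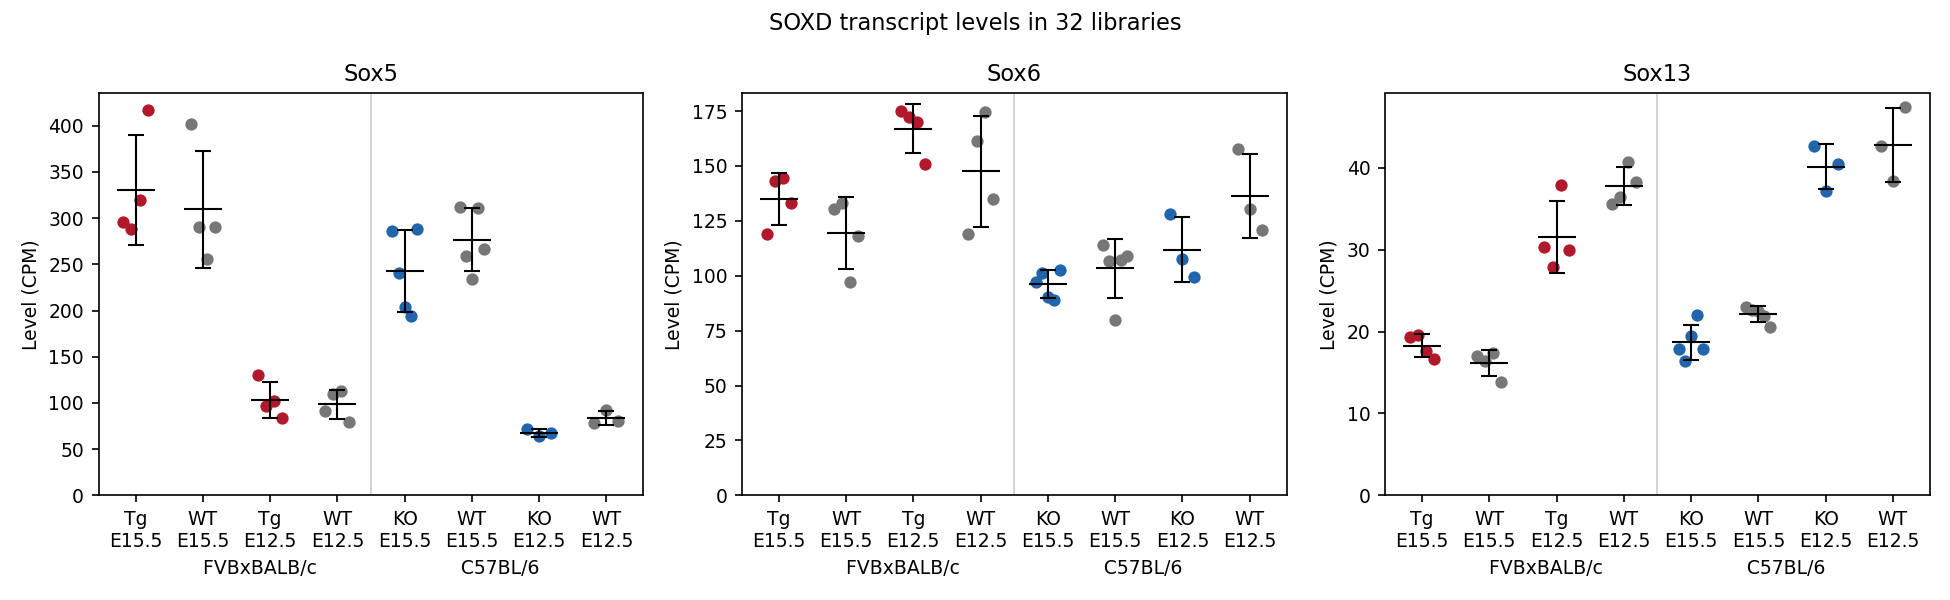
Levels of Sox5, Sox6 and Sox13 in CPM (y axis, from 0) in the 8 groups (x axis: FVBxBALB/c left and C57BL/6 right of the grey line); each point is 1 library, and bars are the group mean ± SD. Sox5 is high in all E15.5 groups and Sox13 in all E12.5 groups, without overlap between the ages, while the Sox6 groups overlap their neighbours.

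Per group, Sox5 averaged 243 ± 44.3 CPM in the labelled knockout and 277 ± 34.2 in C57BL/6 WT at E15.5 (SD, n = 5 each), and 67.8 ± 4.20 and 83.4 ± 7.51 at E12.5 (n = 3 each). Its means were 330.1 ± 59.6 CPM in Tg(Kat6b) and 309.5 ± 63.5 in FVBxBALB/c WT at E15.5, and 103 ± 19.5 and 98.3 ± 15.7 at E12.5 (n = 4 each). Ordered from rank 1, the highest mean, Tg(Kat6b) held rank 1 and its WT rank 2 at E15.5, and the labelled knockout rank 4 and its WT rank 3. At E12.5 Tg(Kat6b) had rank 5 and its WT rank 6, and the labelled knockout rank 8 and its WT rank 7. Neighbours in this order did not differ beyond the larger of their SDs, apart from ranks 4 and 5, which are the step between the ages, and ranks 7 and 8, the E12.5 C57BL/6 pair.

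Sox6 averaged 96.1 ± 6.34 CPM in the labelled knockout and 103 ± 13.4 in C57BL/6 WT at E15.5 (n = 5 each), and 112 ± 14.8 and 136 ± 19.0 at E12.5 (n = 3 each). It averaged 135 ± 11.9 CPM in Tg(Kat6b) and 119.6 ± 16.4 in FVBxBALB/c WT at E15.5, and 167 ± 11.1 and 147.5 ± 25.1 at E12.5 (n = 4 each). The highest mean was that of Tg(Kat6b) at E12.5 and the lowest that of the labelled knockout at E15.5. No 2 neighbours in the order of the 8 means differed by more than the larger of their SDs, and each pair of neighbours overlapped.

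Sox13 averaged 18.7 ± 2.14 CPM in the labelled knockout and 22.2 ± 0.954 in C57BL/6 WT at E15.5 (n = 5 each), and 40.1 ± 2.75 and 42.8 ± 4.51 at E12.5 (n = 3 each). It averaged 18.3 ± 1.40 CPM in Tg(Kat6b) and 16.2 ± 1.63 in FVBxBALB/c WT at E15.5, and 31.5 ± 4.38 and 37.7 ± 2.30 at E12.5 (n = 4 each). The order of means ran from C57BL/6 WT at E12.5, the highest, to FVBxBALB/c WT at E15.5, the lowest. Neighbours separated by more than the larger SD were Tg(Kat6b) and its WT at both ages, the labelled knockout and its WT at E15.5, and the step between the ages from Tg(Kat6b) at E12.5 to C57BL/6 WT at E15.5. Of these, the step between the ages was free of overlap.

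Because the genes differ in length, their levels were set side by side as RPKM, which is CPM divided by the counted length in kilobases. The sum of the 3 SOXD genes was 49.7 ± 6.26 RPKM in the labelled knockout and 56.2 ± 5.97 in C57BL/6 WT at E15.5, and 33.8 ± 2.82 and 39.6 ± 1.51 at E12.5. In Tg(Kat6b) it was 66.1 ± 7.85 RPKM against 60.9 ± 10.1 in FVBxBALB/c WT at E15.5, and 42.7 ± 4.02 against 41.5 ± 5.29 at E12.5. The leading gene changed with age. Sox5 made up 66.2 ± 3.88% of the summed RPKM in the labelled knockout and 67.1 ± 1.66% in C57BL/6 WT at E15.5, but 27.4 ± 0.908% and 28.8 ± 3.33% at E12.5. Sox6 was the largest of the 3 at E12.5, with 38.9 ± 2.41% in the labelled knockout and 40.5 ± 4.10% in WT, where at E15.5 it had 22.9 ± 1.75% and 21.7 ± 1.57%. The share of Sox13 was 10.9 ± 2.47% in the labelled knockout and 11.3 ± 1.34% in WT at E15.5, and 33.7 ± 1.52% and 30.7 ± 3.57% at E12.5.

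FVBxBALB/c embryos showed the same turn. Sox5 took 67.8 ± 4.20% of the summed RPKM in Tg(Kat6b) and 69.0 ± 2.93% in WT at E15.5, and 32.8 ± 3.40% and 32.3 ± 2.35% at E12.5. Sox6 took 24.3 ± 3.10% in Tg(Kat6b) and 23.3 ± 2.44% in WT at E15.5, and 46.3 ± 2.33% and 41.7 ± 2.23% at E12.5. For Sox13 the shares were 7.96 ± 1.42% and 7.66 ± 1.42% at E15.5, and 21.0 ± 2.74% and 26.0 ± 2.63% at E12.5. Within a library the log2 ratio of Sox5 to Sox6 per length was 1.22 to 1.86 in all 18 E15.5 libraries and -0.80 to -0.18 in all 14 E12.5 libraries. These ratios do not depend on how libraries were scaled and are given without a test.

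**Figure D2:**
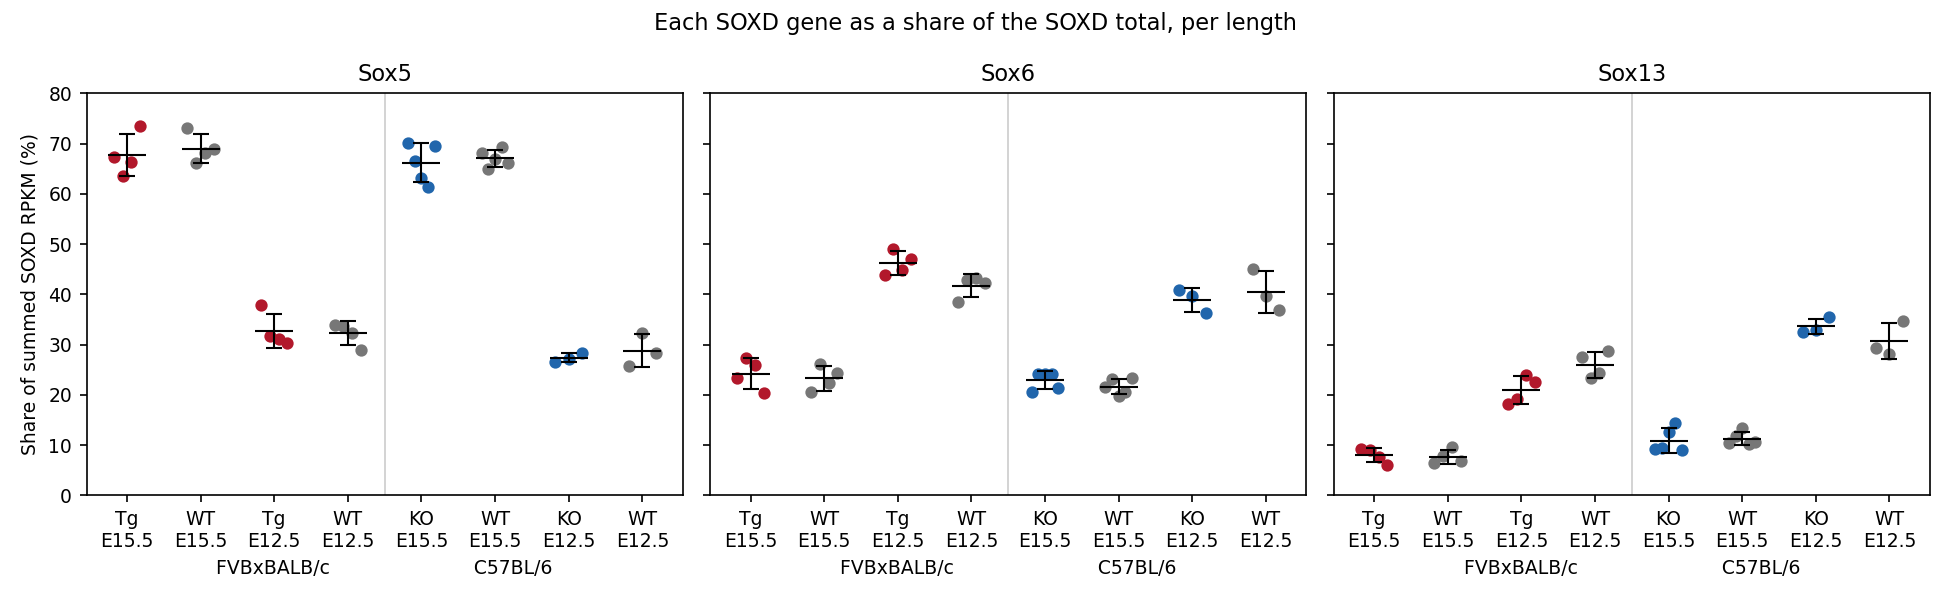
Share of each SOXD gene in the summed SOXD RPKM (y axis, percent) in the 8 groups (x axis, same layout as the plot of levels); points are libraries and bars the mean ± SD. Sox5 holds 61.3 to 73.6% at E15.5 and 25.8 to 37.8% at E12.5, and Sox6 is the largest share at E12.5.

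Labelled knockout and WT were compared to ask whether SOXD transcripts differ with the labelled loss of Kat6b. At E12.5 all 3 genes lay lower in the labelled knockout, by 0.10 to 0.31 on the log2 scale, and 0 of the 3 passed. At this age 1 of 16118 genes was called, 0.0062% of those tested, and with a replicate block 0 were. The 3 knockout samples, at 63.8 to 72.2 CPM of Sox5, were below the 3 WT samples, at 78.0 to 92.0. By p, Sox5 ranked 742 of 16118 genes, and the share of all genes that separate in this way was not counted. The log2 fold change of Sox5 was -0.31 (SE 0.143, 95% interval -0.61 to -0.0087, unadjusted p = 0.0445, adjusted p = 0.881 by edgeR). Sox6 overlapped between the genotypes, and the estimate was -0.30 (SE 0.127, unadjusted p = 0.0327, adjusted p = 0.881). By litter, replicate 1 had 128 CPM of Sox6 in the labelled knockout and 158 in WT. The litter of replicates 3 and 4 had 108 and 99.5 in the labelled knockout and 130.2 and 121 in WT. Litters hold too few libraries per genotype to show whether the genotypes overlap, so these values are a description. With litter as a block the Sox6 estimate was -0.29 (adjusted p = 0.688 by edgeR). Without WT replicate 1, the highest Sox6 library of the comparison, it was -0.17 with no block. Sox13 was at -0.10 (SE 0.105, 95% interval -0.32 to 0.12, adjusted p = 0.931), between -0.17 without WT replicate 3 and -0.023 without WT replicate 4. DESeq2 called 0 of the 3 as well. Beside these values, 11 of 11 markers of dorsal telencephalon and cortex lay below 0 in the labelled knockout (median log2 fold change -0.30, 0 called), where 53.1% of all genes did. Their summed level was 1395 to 1779 CPM in the labelled knockout and 1775 to 2045 in WT, with the lowest sums, 1395 and 1428, in knockout replicates 3 and 4. Ventral telencephalon markers lay above 0 in 10 of 11 (median 0.34), at 540.3 to 971 CPM summed in the labelled knockout and 246, 863 and 653 in WT, where replicate 1 was the lowest. All 12 meningeal and mesenchymal markers were above 0 (median 0.33), at 358 to 2233 CPM in the labelled knockout, where replicate 3 was the highest, and 455.5 to 1401 in WT. All 8 erythroid markers were below 0 (median -0.32), at 1313 to 3569 CPM in the labelled knockout and 2042 to 3710 in WT. Markers of more caudal brain lay below 0 in 8 of 9 tested (median -0.19), at 143 to 499 CPM in the labelled knockout and 395.5 to 419 in WT. Of these lists 0 genes were called, and the part of any list in the SOXD values was not tested.

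At E15.5 the labelled knockout was again lower for all 3 genes without any passing, and 0% of genes were called at this age (456 had an unadjusted p under 0.05, and DESeq2 called 7). For Sox5 the estimate was -0.18 on the log2 scale (SE 0.110, 95% interval -0.41 to 0.051), at an adjusted p of 1 by edgeR. The 2 lowest knockout libraries, at 204 and 194 CPM, are replicates 3 and 4, the pair with raised meningeal markers. Without both, the Sox5 difference was -0.024. Leaving out the 2 lowest knockout libraries moves this value toward 0 in any case, and the WT samples of their litters were kept. Sox6 was at -0.097 (SE 0.0992, 95% interval -0.31 to 0.11, adjusted p = 1), and the genotypes overlapped through WT replicate 3 alone. That library had 79.95 CPM, while the other 4 WT libraries, at 106.6 to 114, lay above all 5 knockout libraries, at 88.7 to 103. Without it the Sox6 value was -0.18, and without WT replicate 1 it was -0.059. Sox13 was at -0.23 (SE 0.0846, unadjusted p = 0.0135, adjusted p = 1), rank 105 of the 16118 genes by p. In 4 of 5 knockout libraries Sox13 was below every WT library, and replicate 4, at 22.0 CPM, was the exception. The share of all genes that come this close to separating, as Sox6 and Sox13 did, was not counted. Without replicates 3 and 4 the Sox13 value was -0.35, still with an adjusted p of 1, and that of Sox6 was -0.040. Without replicates 5 of both genotypes the values of Sox5, Sox6 and Sox13 were -0.26, -0.097 and -0.24. Dorsal telencephalon and cortex markers were below 0 in 11 of 11 (median -0.17, 0 called), against 47.0% of all genes. They summed to 2432 to 3666 CPM in the labelled knockout and 3034 to 3846 in WT, with the lowest sums, 2516 and 2432, in knockout replicates 3 and 4. Of the meningeal markers, 11 of 12 were above 0 (median 0.42). Markers of more caudal brain lay above 0 in 7 of 9 tested (median 0.23). They summed to 318 and 308.5 CPM in knockout replicates 3 and 4, 51.1 to 56.8 in the other knockouts and 44.8 to 288 in WT. Ventral telencephalon markers lay below 0 in 10 of 11 (median -0.21). The part of any of these lists in the SOXD values was not tested. DESeq2 called 0 of the 3 SOXD genes.

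Whether the difference between the labelled knockout and WT itself changes between the ages was tested as an interaction, E15.5 minus E12.5, for which 0% of genes were called (438 at an unadjusted p under 0.05, and 1 by DESeq2). It was 0.13 for Sox5 (SE 0.180, 95% interval -0.25 to 0.51), 0.20 for Sox6 (SE 0.161, -0.14 to 0.54) and -0.13 for Sox13 (SE 0.135, -0.41 to 0.15), and edgeR's adjusted p was 1 for each. Leaving out 1 library at a time gave 0.048 to 0.19 for Sox5, 0.079 to 0.30 for Sox6 and -0.21 to -0.061 for Sox13. The value nearest 0 came without WT replicate 3 of E12.5 for Sox5 and Sox13, and without WT replicate 1 of E12.5 for Sox6.

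Embryos with and without Tg(Kat6b) were compared to ask whether SOXD transcripts differ when Kat6b is raised. At both ages 0 of 3 passed, where 0.0129% of 15556 genes were called, 2 at each age. At E12.5 Sox5 overlapped almost fully, 84.1 to 130.1 CPM in Tg(Kat6b) and 79.7 to 113 in WT, and the difference on the log2 scale was 0.072 (SE 0.169, adjusted p = 0.961 by edgeR). That value turned to -0.061 without Tg(Kat6b) replicate 1, the highest library, and to -0.016 without WT replicate 4, the lowest. Sox6 was at 0.18 (SE 0.121, 95% interval -0.073 to 0.44, adjusted p = 0.806), and at 0.094 without WT replicate 1 and 0.27 without WT replicate 3. Sox13 was at -0.26 (SE 0.103, unadjusted p = 0.0238, adjusted p = 0.724), with 3 of 4 transgenic libraries, at 27.9 to 30.3 CPM, below every WT library and replicate 3 at 37.9 among them. How many of all genes separate this far was not counted. Meningeal and mesenchymal markers lay below 0 in 10 of 12 (median -0.56), with 264 to 1350 CPM summed in Tg(Kat6b) and 362 to 2041 in WT. Erythroid markers lay below 0 in 6 of 8 (median -0.64), with 1398 to 4217 CPM in Tg(Kat6b) and 2292 to 9383 in WT. Markers of more caudal brain lay below 0 in 7 of 7 tested (median -0.71), with 182 to 403 CPM in Tg(Kat6b) and 198 to 852 in WT. Ventral telencephalon markers lay above 0 in 9 of 11 (median 0.25), with 568 to 963 CPM in Tg(Kat6b) and 474 to 802 in WT. The part of any of these lists in the SOXD values was not tested.

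At E15.5 the transgenic values of all 3 genes were slightly above WT. Sox5 was at 0.10 (SE 0.169, 95% interval -0.26 to 0.46), Sox6 at 0.18 (SE 0.122, -0.076 to 0.44) and Sox13 at 0.18 (SE 0.110, -0.047 to 0.42), and edgeR's adjusted p was 1 for each. For Sox6 and Sox13, 3 of 4 transgenic libraries were above every WT library, and the share of all genes that separate this far was not counted. Sox6 was at 0.084 without WT replicate 3, and Sox13 at 0.12 without WT replicate 4. The Sox5 value depended on Tg(Kat6b) replicate 4, at 417 CPM, without which it was -0.038. Replicate 4 also had the highest sum of dorsal telencephalon and cortex markers, 5460 CPM, where the other 7 FVBxBALB/c cortices had 3791 to 4823. Its sum of ventral telencephalon markers was the lowest, 401 CPM against 635 to 1106. So was that of MGE interneuron genes, 877 CPM against 1152 to 1645. Pallial progenitor genes lay above 0 in 13 of 15 (median log2 fold change 0.23, 0 called). Dorsal telencephalon and cortex markers did in 10 of 11 (median 0.15), and SOX genes of other groups in 12 of 15 (median 0.098). Erythroid markers lay below 0 in 6 of 8 (median -0.18) and oligodendrocyte lineage genes in 7 of 9 (median -0.12). Meningeal and mesenchymal markers did in 7 of 12 (median -0.10). Of all 15556 genes, 7619 lay below 0. Some genes are on more than 1 list, so values of different lists are not separate observations. The part of these sums and lists in the SOXD values was not tested. DESeq2 called 0 of the 3 at either age.

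The interaction of transgene and age was largest for Sox13, whose transgenic value lay below WT at E12.5 and above it at E15.5. It came to 0.44 (SE 0.151, 95% interval 0.12 to 0.76, unadjusted p = 0.00950, adjusted p = 1 by edgeR), rank 93 of 15556 genes by p, and did not pass. Sox5 was at 0.029 (SE 0.239, -0.48 to 0.54) and Sox6 at -0.00060 (SE 0.172, -0.36 to 0.36). For this interaction 0% of genes were called, with 628 at an unadjusted p under 0.05 and 1 by DESeq2.

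FVBxBALB/c and C57BL/6 WT were compared in 1 model of all 32 libraries, and any difference is also one between sequencing batches. At E15.5, 25.3% of 16399 genes were called (13.9% higher, 11.3% lower), and the share that separate without overlap was not counted. Sox13 was lower in FVBxBALB/c, 13.8 to 17.4 CPM against 20.6 to 23.0 in C57BL/6 without overlap. On the log2 scale this was -0.45 (SE 0.0957, adjusted p = 0.00091 by edgeR), a ratio of 0.732 (95% interval 0.639 to 0.838). Beside it, markers of more caudal brain lay below 0 in 9 of 10 tested (median -0.92), at 47.7 to 87.1 CPM summed in FVBxBALB/c and 44.8 to 288 in C57BL/6. Meningeal and mesenchymal markers lay below 0 in 9 of 12 (median -0.42), at 53.0 to 63.3 CPM in FVBxBALB/c and 46.2 to 139 in C57BL/6. Dorsal telencephalon and cortex markers lay above 0 in 10 of 11 (median 0.20), at 3791 to 4823 CPM in FVBxBALB/c and 3034 to 3846 in C57BL/6. The part of these lists in the SOXD values was not tested. Sox5 at 0.16 (SE 0.145, adjusted p = 0.4496) and Sox6 at 0.21 (SE 0.113, adjusted p = 0.1735) did not pass. Leaving out 1 library put Sox5 between 0.012, without FVBxBALB/c replicate 1, and 0.24, and Sox6 between 0.13, without C57BL/6 replicate 3, and 0.30. At E12.5, where 12.8% of genes were called (5.59% higher, 7.19% lower), Sox13 was at -0.18 (SE 0.102, adjusted p = 0.271), Sox5 at 0.24 (SE 0.167, adjusted p = 0.3896) and Sox6 at 0.12 (SE 0.128, adjusted p = 0.6145), and 0 of 3 passed. At this age Sox6 was at 0.024 without FVBxBALB/c replicate 3 and at 0.24 without C57BL/6 replicate 1, and Sox13 at -0.098 without C57BL/6 replicate 4. Whether the Sox13 difference itself differs between the ages was not tested.

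**Figure D3:**
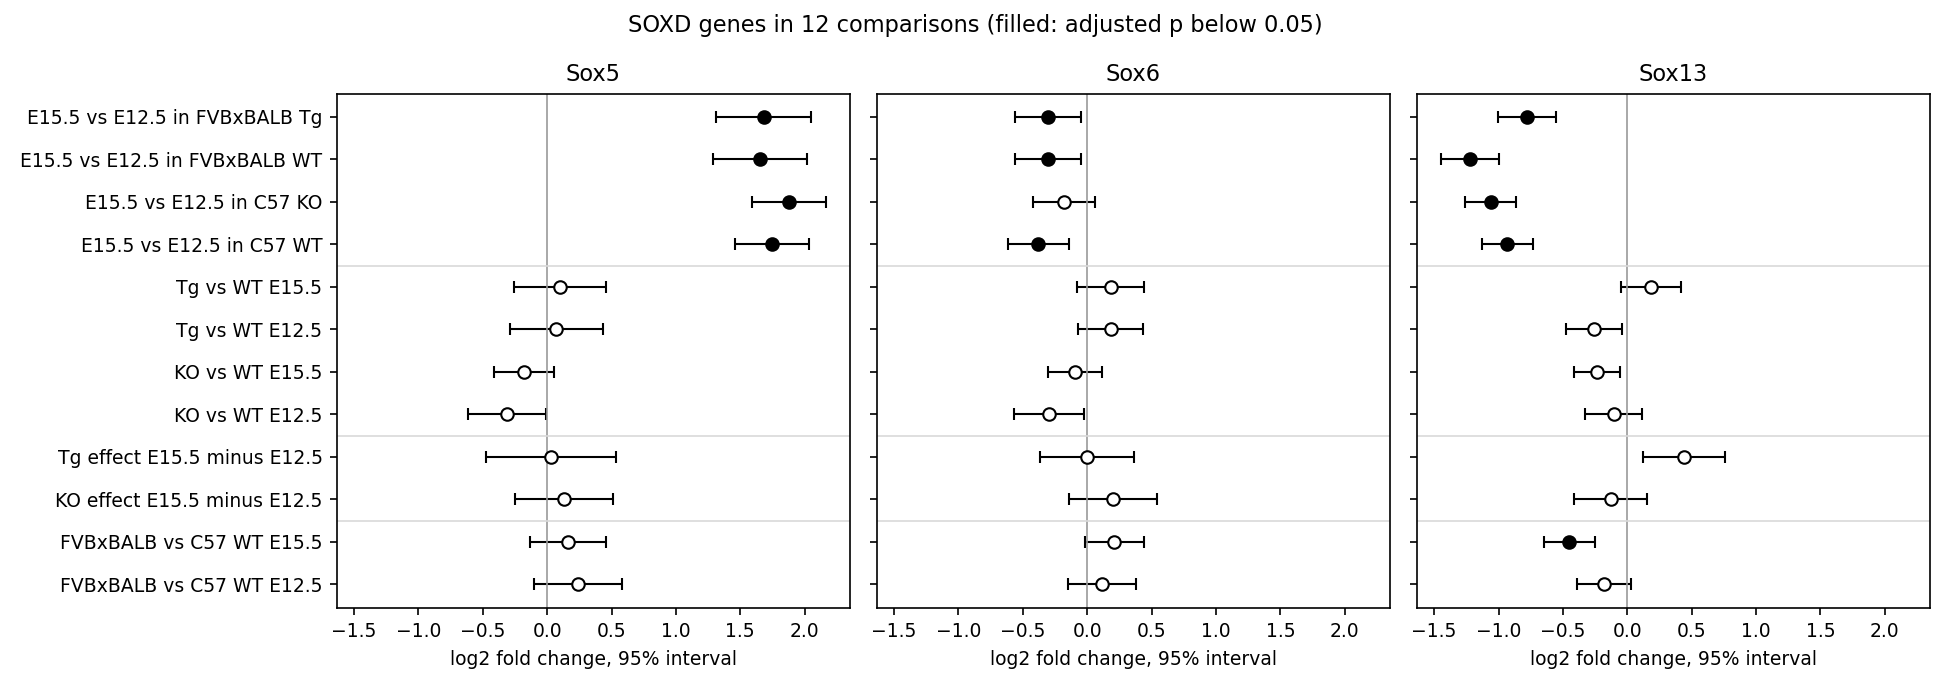
Log2 fold changes (x axis) of Sox5, Sox6 and Sox13 in the 12 comparisons (rows), with 95% intervals; filled points have an adjusted p below 0.05 by edgeR. The calls are the age changes of Sox5 and Sox13 in all 4 genotypes, those of Sox6 in 3, and the lower Sox13 level of FVBxBALB/c WT at E15.5.

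The company that the SOXD genes keep in the cortex was described with lists of genes for the cell types in which they act. Corticofugal and deep-layer genes, the neurons of SOX5, rose with age: 11 of 14 tested were called higher in the labelled knockout, in C57BL/6 WT and in Tg(Kat6b), and 10 in FVBxBALB/c WT, with 0 called lower, beside 23.8 to 29.4% of all genes called higher. Their median log2 fold changes were 1.35, 1.17, 1.35 and 1.14, where the median of all genes was -0.029 to -0.0080. In FVBxBALB/c WT, Bcl11b, a zinc finger factor of subcerebral neurons, was at 1.54 (SE 0.110), the guidance receptor gene Nrp1 at 1.48 (SE 0.126) and the nuclear factor I gene Nfib at 1.84 (SE 0.222), beside 1.65 for Sox5. Upper-layer and callosal genes were called higher in 8, 7, 9 and 8 of 12 in the same order of groups, among them the netrin receptor gene Unc5d at 2.83 (SE 0.251) in C57BL/6 WT and 2.88 (SE 0.232) in FVBxBALB/c WT. Of 11 subplate genes, 3 were called higher in each, close to the 23.8 to 29.4% of all genes, and 5, 5, 4 and 6 were called lower, beside 22.5 to 28.2% of all genes. Hs3st4, a heparan sulfate sulfotransferase gene, rose by 3.11 (SE 0.283) in C57BL/6 WT, and Svil fell by 1.46 (SE 0.232).

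Pallial progenitor genes, cells in which SOX6 is found, mostly fell with age: 11, 11, 10 and 10 of 15 were called lower in the labelled knockout, C57BL/6 WT, Tg(Kat6b) and FVBxBALB/c WT, beside 22.5 to 28.2% of all genes, and 3 higher in each. In C57BL/6 WT, Pax6 fell by 1.00 (SE 0.0770), the Notch effector gene Hes5 by 1.48 (SE 0.121) and Nes, an intermediate filament gene of neural stem cells, by 1.24 (SE 0.135), beside 0.38 for Sox6. MGE interneuron genes rose in 8, 8, 7 and 8 of 16, among them the neuropeptide genes Npy at 2.53 (SE 0.430) and Sst at 2.59 (SE 0.543) in C57BL/6 WT, and 0, 0, 1 and 0 were called lower, beside 23.8 to 29.4% of all genes called higher and 22.5 to 28.2% lower. Of the genes that SOX5, SOX6 and SOX9 switch on in cartilage, 6, 4, 3 and 7 were called lower, out of 9 tested in C57BL/6 and 8 in FVBxBALB/c, again beside 22.5 to 28.2% of all genes. Col2a1, the type II collagen gene, was at -1.80 (SE 0.150), -1.43 (SE 0.150), -1.18 (SE 0.143) and -1.96 (SE 0.146).

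In the 4 genotype comparisons edgeR and DESeq2 called 0 of the 149 genes on all lists tested in C57BL/6 and 0 of the 146 in FVBxBALB/c. An unadjusted p under 0.05 was found for 21 and 12 of them in the labelled knockout at E12.5 and E15.5, and for 11 and 5 in Tg(Kat6b). Among all genes tested the counts were 842 and 456 of 16118 in the labelled knockout, and 1039 and 346 of 15556 in Tg(Kat6b). In the labelled knockout at E12.5, 11 of 14 corticofugal genes lay below 0 (median -0.12), where 53.1% of all genes did. Among them were Nfib at -0.63 (SE 0.178) and Nfia at -0.42 (SE 0.159), both with an adjusted p of 0.881 by edgeR. Upper-layer and callosal genes lay below 0 in 10 of 12 (median -0.21), and subplate genes in 4 of 11 (median 0.053). Pallial progenitor genes lay below 0 in 12 of 15 at both ages (median -0.24 at E12.5 and -0.17 at E15.5), beside 53.1% and 47.0% of all genes. MGE interneuron genes lay above 0 in 13 of 16 at E12.5 (median 0.13) and in 5 of 16 at E15.5 (median -0.062). At E12.5 they summed to 812, 883 and 1316 CPM in the labelled knockout and to 501, 1241 and 980 in WT, so the genotypes overlapped and WT replicate 1 had the lowest sum.

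**Figure D4:**
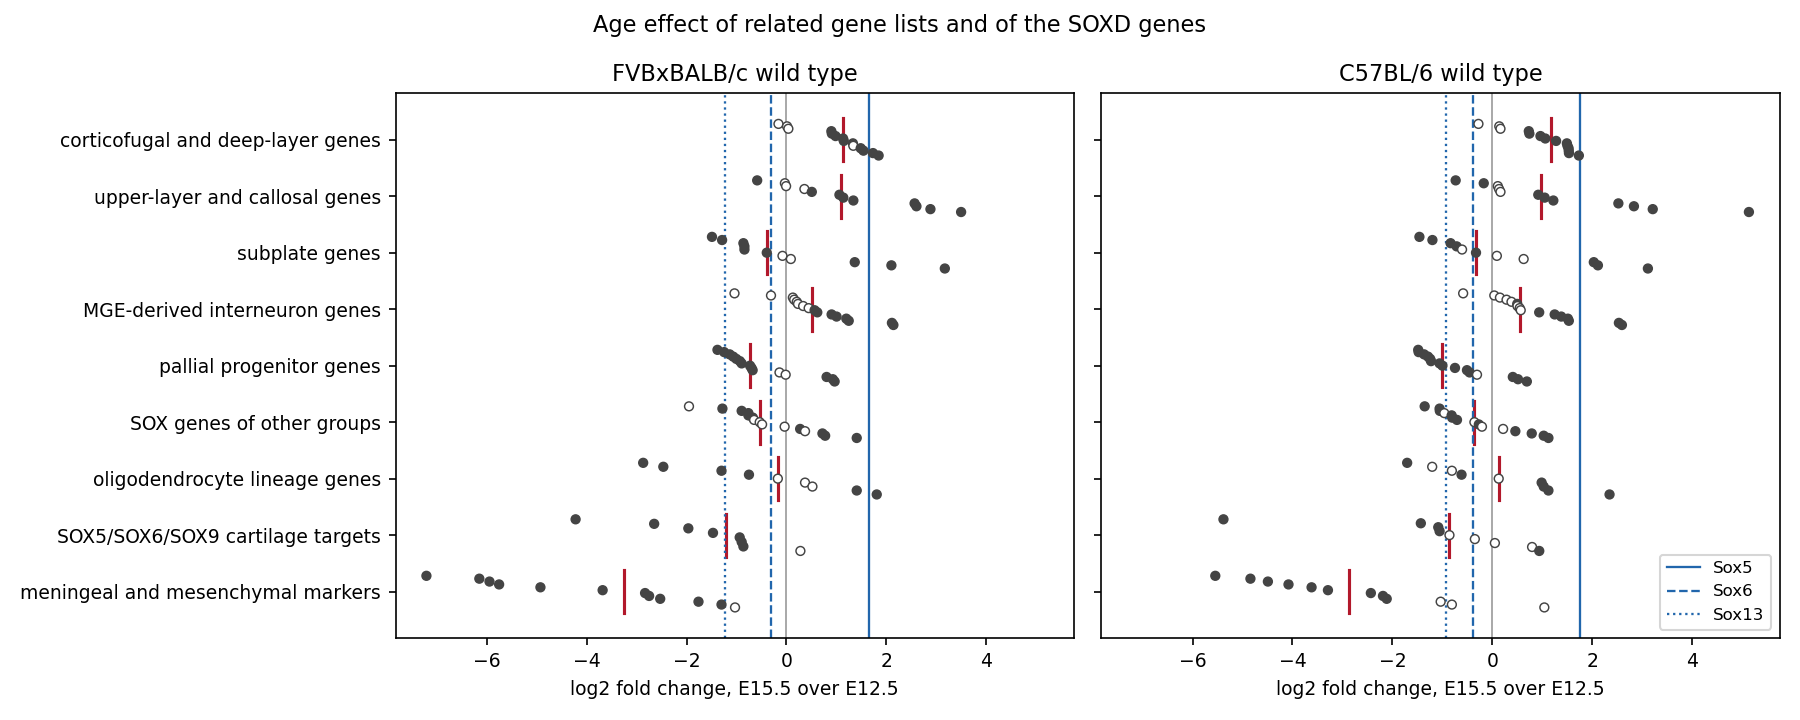
Log2 fold changes with age (x axis, E15.5 over E12.5) of each tested gene in 9 lists (rows) for FVBxBALB/c WT (left) and C57BL/6 WT (right); filled points are called, red bars are list medians, and blue lines mark Sox5 (solid), Sox6 (dashed) and Sox13 (dotted). Sox5, at 1.65 and 1.75, lies to the right of the deep-layer medians of 1.14 and 1.17.

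Within groups, Sox5 and Sox6 varied together more than either did with Sox13. Over the 32 libraries, deviations of log2 CPM from the group mean had a Pearson r of 0.544 between Sox5 and Sox6 (Spearman rho 0.548), -0.215 between Sox5 and Sox13 and -0.054 between Sox6 and Sox13. Libraries share depth and dissection, so these values are descriptions. Among 10472 genes ranked by the same measure, Sox6 came 1125th in likeness to Sox5, and Sox5 came 809th in likeness to Sox6. The 5 genes most like Sox5 were Pag1 (r = 0.891, rho 0.872), Ttc28 (0.886), Celf2 (0.877), Map3k7 (0.870) and Plxna2 (0.860). For Sox6 they were Spata13 (0.857, rho 0.841), Epha4 (0.843), Smad5 (0.821), Zfp704 (0.821) and Spred1 (0.817). Likeness was lower for Sox13, whose 5 nearest genes were Pon2 (0.643, rho 0.631), Clpb (0.585), Nrarp (0.583), Sh2d3c (0.564) and Gltp (0.558).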

How the data were processed

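RNA from 32 mouse samples was measured by sequencing. Per the labels' protocols, total RNA was taken with RNeasy columns including a DNase step, and libraries were made with the TruSeq RNA prep kit v2. The authors deposited raw counts per gene, 1 file per library. The submitters' processing notes name bcl2fastq, featureCounts and mm10; they give no aligner, annotation, strand setting or version. Each deposited file had 27179 rows, of which 848 named no gene. These held 0.305 to 2.002% of the counts and were left out.

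In R 4.3.3, edgeR 4.0.16 was run on the deposited counts: filterByExpr (minimum count 10, minimum total 15), TMM scaling, and a robust quasi-likelihood fit with 4 group means per background (16118 genes in C57BL/6, 15556 in FVBxBALB/c, 12 residual degrees of freedom each). The strain comparison used 1 model of all 32 libraries (16399 genes, 24 degrees of freedom). P-values are 2-sided and Benjamini-Hochberg adjusted across the genes of a model, with calls below 0.05. Standard errors were derived from the log2 fold change and its F statistic (size over root F). CPM uses TMM factors over all 32 libraries; RPKM also divides by the gene length given in the files, a column the authors deposited with unit bases. Intervals are at 95%. PCR duplicates were not resolved by molecular identifiers. Fits were tested on simulated data. Alternatives were DESeq2 1.42.0, its size factors, no low-count filter, blocks for replicate number or litter, other sets of libraries in the model, and leaving out libraries.

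At E15.5 in C57BL/6, knockout and WT samples of the same number share a litter per the labels, and at E12.5 the numbers fall into 2 litters, so numbers pair these samples; their deviations correlated at -0.109 to 0.374 at E15.5 and -0.351 to 0.376 at E12.5. Labels do not tie the FVBxBALB/c numbers to litters. C57BL/6 labels number the embryo of each library. FVBxBALB/c labels give none, so there p-values measure only the spread between samples, which may be technical.

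The members, gene lists and tests were chosen with earlier results of these data known. The genes named were the 3 members, up to 4 genes of a list with the smallest p in a comparison, the 5 genes most like each member, and Kat6b. Positions and promoters came from RefSeq (GRCm38.p6), where 25275 of 26331 named genes and all 3 members matched.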

Additional observations from a re-analysis of the deposited data

Results flagged for a closer look

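Sox6 in C57BL/6 WT replicate 3 at E15.5 was far from the rest of its group, at 79.95 CPM where the other 4 libraries had 106.6 to 114.1. Its gap to the nearest of them was 0.78 of the range of the group (n = 5). Of the 18 groups of 4 or 5 libraries examined over the 3 genes this was the only such value, and chance gives about 1 in 20. The same library had the lowest Sox5 level of its group, 234 CPM, and the highest sum of meningeal and mesenchymal markers, 139.4 CPM against 46.2 to 69.05 in the other WT cortices. Its Sox13 level, 22.5 CPM, was within the range of the others. Without it, the difference of Sox6 between labelled knockout and WT at E15.5 was -0.18, against -0.097 with it, and the age change in C57BL/6 WT was -0.29, against -0.38 with it, and stayed called.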

How the results depend on the processing

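Of 537 values of the 36 SOXD results under the alternatives, 507 kept their direction and their side of the threshold, 18 changed sign and 12 lost the threshold; 0 gained it. All 30 came from leaving out 1 library. Those ranges were -0.11 to 0.18 for the Sox5 and -0.093 to 0.088 for the Sox6 interaction of transgene and age, -0.061 to 0.15 and -0.038 to 0.25 for Sox5 in Tg(Kat6b) against WT at E12.5 and E15.5, and, for the age change of Sox6, -0.46 to -0.26 in C57BL/6 WT, -0.35 to -0.25 in Tg(Kat6b) and -0.39 to -0.21 in FVBxBALB/c WT. The age changes of Sox5 (1.51 to 2.03) and Sox13 (-1.26 to -0.68) and the lower Sox13 of FVBxBALB/c WT at E15.5 (-0.49 to -0.38) stayed called under every alternative run.

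Counts of genes called moved more. DESeq2 called 5 and 7 in the labelled knockout at E12.5 and E15.5, 6 and 7 in Tg(Kat6b), and 1 in either interaction. With a replicate block the knockout count at E12.5 was 0; with a litter block it was 0 at E12.5 and 1 at E15.5. The model of all 32 libraries gave 1 for the knockout and 4 for Tg(Kat6b) at E15.5. A model of only the libraries compared gave 0 for the knockout at E12.5, and 2 for the knockout and 4 for Tg(Kat6b) at E15.5. Leaving out 1 library gave 0 to 2 for the knockout at E12.5, with 2 without replicate 1 of either genotype. It gave 859 to 3323 for the strain comparison at E12.5, moved most by C57BL/6 WT replicates 3 (1222 without it) and 4 (859) and FVBxBALB/c WT replicates 3 (1385) and 4 (3323). The cause was not tested. The replicate block changed no SOXD call. In FVBxBALB/c, where numbers carry no litter, same-numbered samples correlated at -0.108 to 0.562 at E12.5 and -0.113 to 0.071 at E15.5, and the block gave 3 called genes at each age. No paired analysis was possible for the age and strain comparisons because a number or litter belongs to 1 age and background. The lowest SOXD count in any library was 139, for Sox13.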

Other observations

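Of 15 SOX genes outside the SOXD group tested, 3, 4, 4 and 4 were called higher at E15.5 in the labelled knockout, C57BL/6 WT, Tg(Kat6b) and FVBxBALB/c WT, and 7, 7, 6 and 5 lower. Of all genes, 29.4%, 28.6%, 23.8% and 25.1% were called higher and 27%, 28.2%, 22.5% and 25.1% lower in the same order. The SOXC genes Sox4 and Sox11, which act in newly formed neurons, rose in all 4, Sox4 by 0.87, 0.79, 0.87 and 0.77 on the log2 scale and Sox11 by 0.58, 0.46, 0.84 and 0.72. Sox2, a factor of neural stem cells, fell in all 4, by 0.75, 0.71, 0.64 and 0.67. Sox9, the partner of SOX5 and SOX6 in cartilage and a factor of radial glia, fell by 1.01, 1.06, 0.44 and 0.90. In the SOXE group Sox8 went the other way, at 1.13, 1.12, 1.42 and 1.41.

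Against WT, SOX genes of other groups lay below 0 in the labelled knockout in 13 of 15 at both ages (median log2 fold change -0.21 at E12.5 and -0.20 at E15.5), with 0 called by edgeR, where 53.1% and 47.0% of all genes did. Sox21, a SOXB gene, was at -0.33 (SE 0.124, adjusted p = 0.881) and -0.42 (SE 0.0975, adjusted p = 1). Genes of the oligodendrocyte lineage, where SOX5 and SOX6 also act, split with age: Olig1 rose by 2.35 (SE 0.272) in C57BL/6 WT and by 1.81 (SE 0.271) in FVBxBALB/c WT, while Myrf fell by 1.70 (SE 0.407) and 2.47 (SE 0.279).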
